A study of Homo sapiens with 10 samples.

Results

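The genes described here encode the enzymes that write, copy and remove cytosine methylation and the core of Polycomb repressive complex 2 (PRC2). They are DNMT1, DNMT3A, DNMT3B, UHRF1, TET1, TET2, TET3, EZH2, EED and SUZ12, 10 of the 61533 genes in the count tables. They were taken by name through their Ensembl identifiers and not by a rule on their values, but with earlier results of these data known. RNA-seq was performed on 5 libraries of T24, an established line of human bladder cancer cells, and 5 libraries of T24R2, a cisplatin-resistant line that another laboratory derived from T24 by serial exposure to the drug. Both lines were grown in RPMI with fetal bovine serum and collected on day 3. The study's methods keep T24R2 in cisplatin, while the sample labels give 1 drug-free medium for both lines, so a difference between lines and an effect of drug exposure cannot be told apart. T24R2 is 1 derived line, and nothing says that the 5 replicates were separate cultures, so p-values measure only the spread between these libraries.

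DNMT1 copies methylation onto the new DNA strand during replication, and UHRF1 brings it to hemimethylated sites. DNMT3A and DNMT3B methylate DNA that was unmethylated before. The TET dioxygenases oxidise 5-methylcytosine, which opens the way to its removal, and PRC2 methylates lysine 27 of histone H3 through its catalytic subunit EZH2, with EED and SUZ12 as the partners it needs for activity. In bladder cancer both systems are known for silencing of promoters and of differentiation genes.

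Total counts ran from 9257843 to 10247941 in T24 and from 9591379 to 10840954 in T24R2. All 10 genes were among the 16181 that passed the filter on low counts. Levels are given as CPM, counts scaled to a common library total, after TMM normalization, as mean ± SD of n = 5 libraries. A gene was called when the adjusted p-value of edgeR's quasi-likelihood test was under 0.05 and the absolute log2 fold change of T24R2 over T24 was above 0.5, the thresholds of the study. Because TMM factors were 0.936 to 0.951 in T24 and 1.04 to 1.07 in T24R2, scaling by library size alone moved the median over all tested genes from 0.01 to 0.18 in log2 fold change. It moved the share of calls that were higher from 48.5% to 60.3%. All 10 genes kept their direction under every scaling tried. The libraries carried the keratins of an epithelial line, with KRT7 at 2242 CPM, KRT8 at 1541 CPM and KRT18 at 1112 CPM in T24 and at 1370, 1009 and 691 CPM in T24R2. Of the 12 urothelial and epithelial markers, 7 were tested and all 7 were called lower, where 26.5% of all tested genes were. The 12 summed to 4938 to 5671 CPM in T24 and 3012 to 3217 CPM in T24R2. KRT19 stood at 267 CPM in T24 and at no more than 3 counts in any T24R2 library, and GATA3, a urothelial transcription factor, at 22.1 CPM in T24 and no more than 5 counts in T24R2. The urothelial regulator PPARG stood at 75.9 CPM in T24 and 26.2 CPM in T24R2. Of the 4 uroplakin genes, UPK2 was called lower, at 9.90 CPM in T24 and 2.74 CPM in T24R2. UPK2 held at most 104 counts in a T24 library and 39 in a T24R2 library. It shares 54 exon bases with BCL9L on the opposite strand, which averaged 2994 counts in T24 and 822 in T24R2. Whether reads of BCL9L account for the counts and the call of UPK2 was not tested. UPK1A had no more than 7 counts in any library, and UPK1B and UPK3A no more than 3. The endothelial cadherin CDH5 stood at 239 ± 22.3 CPM in T24 and 0.559 ± 0.310 CPM in T24R2 (SD, n = 5), 1 of 2 called lower among 4 endothelial markers. Those 4 summed to 225 to 278 CPM in T24 and 1.60 to 2.50 CPM in T24R2. None of 5 immune markers was tested, and they summed to at most 2.88 CPM. Fibroblast markers summed to at most 11.2 CPM in any library, with 2 of 7 tested and both called lower. The share of 26.5% stands beside the endothelial and fibroblast calls as well. Markers near the floor in T24R2, KRT19, GATA3 and CDH5 among them, passed the filter on low counts only through their T24 libraries. Their calls therefore add nothing to these counts. How far these markers take part in the results below was not tested.

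Of the 10 genes, 6 were called, where 51.4% of all tested genes were called. DNMT1, DNMT3A, DNMT3B, TET2 and TET3 rose in T24R2, 5 genes against a background of 24.9% called higher. TET1 was called lower, 1 gene against a background of 26.5%, but it passed the filter on low counts only through its T24 libraries, so its call adds nothing to these counts. UHRF1 and EED were lower and EZH2 higher with adjusted p-values under 0.05 but changes below the fold minimum, and SUZ12 missed the p threshold. By p alone 9 of 10 genes passed, 6 higher and 3 lower, where 75.5% of tested genes passed, 37.9% higher and 37.6% lower. In bulk RNA, fewer cells with a transcript and less of it per cell cannot be told apart. The median log2 fold change of the 10 genes was 0.45, where the median over all tested genes was 0.01. In CPM the lines did not overlap for 9 of the 10 genes, a pattern that 61.2% of tested genes showed (29.9% with T24R2 above and 31.3% with T24R2 below). TET1 is 1 of the 9 both by p alone and by this pattern, and for the reason given above it adds nothing to either count. Each of the 9 reached p = 0.00794 in an exact two-sided permutation test, the smallest p that 5 libraries against 5 allow. Every gene without overlap reaches this p, so it restates that pattern and adds nothing to it. Under library size scaling alone, the exact permutation test gave 0.0317 for UHRF1 and 0.0714 for EED.

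**Figure D1:**
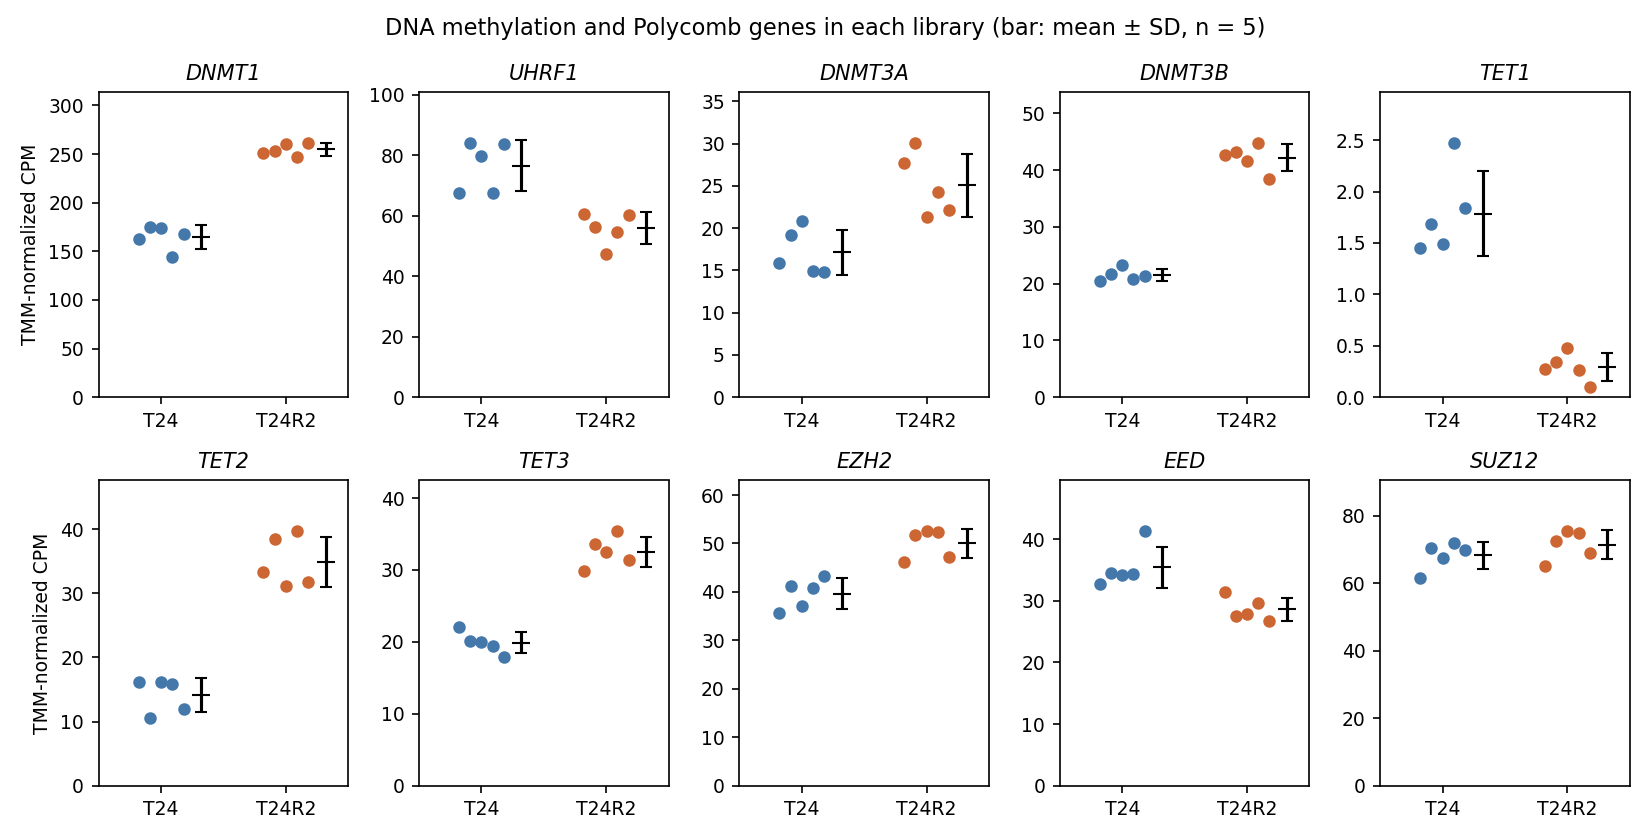
TMM-normalized CPM (vertical axis, starting at 0) of the 10 genes in each T24 library (blue) and each T24R2 library (orange), with the mean ± SD of 5 libraries as a black bar. The points of the lines are separate in every panel but that of SUZ12, and TET2 and DNMT3B show T24R2 points at 31.1 CPM or above and 38.4 CPM or above, over T24 points of at most 16.2 CPM and 23.3 CPM.

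Of the genes that write and maintain DNA methylation, DNMT1 (ENSG00000130816.17, chr19:10133342-10231286 of hg38, minus strand) rose in T24R2. Its level was 163, 175, 174, 144 and 168 CPM in T24 replicates 1 to 5 and 251, 254, 261, 247 and 261 CPM in T24R2 replicates 1 to 5. Every T24R2 library lay above every T24 library, and the lowest T24R2 value exceeded the highest T24 value by more than the range within either line. The mean rose from 165 ± 12.5 to 255 ± 6.26 CPM (SD, n = 5), a difference of 0.63 ± 0.05 in log2 fold change (± standard error, SE, edgeR's quasi-likelihood test, adjusted p = 6.4e-15) or 1.55-fold. Exons of DNMT1 share 83 bases with those of S1PR2 on the same strand and none with genes of the other strand.

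UHRF1 (ENSG00000276043.5, chr19:4903080-4962154, plus strand), the partner that reads hemimethylated DNA for DNMT1, lay lower in T24R2. T24 replicates 1 to 5 stood at 67.7, 84.2, 79.9, 67.7 and 83.9 CPM, and T24R2 replicates 1 to 5 at 60.7, 56.4, 47.5, 54.5 and 60.4 CPM. The groups did not overlap, although the gap between the lowest T24 and the highest T24R2 library was smaller than the range within each line. The log2 fold change was -0.45 ± 0.07 (± SE, edgeR's quasi-likelihood test, adjusted p = 2.1e-07), inside the fold minimum, and it reached -0.50 and a call without T24 replicate 1 and likewise without T24 replicate 4.

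DNMT3B (ENSG00000088305.18, chr20:32762385-32809356, plus strand), a de novo methyltransferase, rose the most of the 3 DNMT genes. It measured 20.4, 21.7, 23.3, 20.9 and 21.3 CPM in T24 replicates 1 to 5 and 42.7, 43.3, 41.7, 44.8 and 38.4 CPM in T24R2 replicates 1 to 5. No T24R2 library came near the T24 range. The mean went from 21.5 ± 1.103 to 42.2 ± 2.37 CPM (SD, n = 5), 1.96-fold, or 0.97 ± 0.08 in log2 fold change (± SE, edgeR's quasi-likelihood test, adjusted p = 1.3e-14). DNMT3A (ENSG00000119772.19, chr2:25227855-25342590, minus strand), its paralog, rose less and varied more between replicates. Its values were 15.9, 19.1, 20.8, 14.95 and 14.8 CPM in T24 and 27.7, 30.1, 21.3, 24.2 and 22.1 CPM in T24R2. The ranges met almost edge to edge, with T24 replicate 3 just below T24R2 replicate 3. DNMT3A averaged 17.1 ± 2.705 CPM in T24 and 25.1 ± 3.73 CPM in T24R2 (SD, n = 5), or 0.56 ± 0.11 in log2 fold change (± SE, edgeR's quasi-likelihood test, adjusted p = 1.3e-05). Without T24R2 replicate 2 the log2 fold change of DNMT3A was 0.49 and the call was lost. DNMT3L, a catalytically inactive cofactor of these enzymes, had at most 2 counts in any library and was not tested.

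Of the TET dioxygenases, TET2 and TET3 rose, and TET1 is given by its counts. TET2 (ENSG00000168769.14, chr4:105145875-105279816, plus strand) measured 16.2, 10.5, 16.1, 15.9 and 11.99 CPM in T24 replicates 1 to 5 and 33.3, 38.4, 31.1, 39.6 and 31.8 CPM in T24R2 replicates 1 to 5. The lines were far apart, with no library of either line between 16.2 and 31.1 CPM. Its mean rose from 14.1 ± 2.69 to 34.8 ± 3.93 CPM (SD, n = 5), 2.47-fold, or 1.30 ± 0.10 in log2 fold change (± SE, edgeR's quasi-likelihood test, adjusted p = 2.3e-14). TET3 (ENSG00000187605.16, chr2:73984910-74108176, plus strand) had a smaller change. Its T24 libraries held 22.1, 20.1, 19.996, 19.4 and 17.9 CPM, and its T24R2 libraries 29.9, 33.6, 32.5, 35.4 and 31.4 CPM. The groups did not overlap, and the mean went from 19.9 ± 1.51 to 32.6 ± 2.09 CPM (SD, n = 5). The log2 fold change of TET3 was 0.71 ± 0.08 (± SE, edgeR's quasi-likelihood test, adjusted p = 7.4e-10).

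TET1 (ENSG00000138336.9, chr10:68560337-68694487, plus strand), the TET enzyme best known from pluripotent and germ cells, had few counts in both lines. The counts were 14, 16, 13, 23 and 17 in T24 replicates 1 to 5 and 3, 4, 5, 3 and 1 in T24R2 replicates 1 to 5. No T24R2 library reached the lowest T24 count, and 3 of the 5 T24R2 libraries held 3 counts or fewer, the number treated as the floor. Over the line, 83 counts in T24 stood against 16 in T24R2. Scaled to library sizes after TMM normalization, T24 was 6.06 times as high (95% confidence interval 3.52 to 11.1, counting error only). The fitted log2 fold change was -2.55 ± 0.40 (± SE, edgeR's quasi-likelihood test, adjusted p = 4.1e-07), a value that depends on how such low counts are smoothed. TET1 passed the filter on low counts only through its T24 libraries.

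The core subunits of PRC2 stayed inside the fold minimum, and none of the 3 was called by edgeR, DESeq2 or limma-voom, although EZH2 and EED passed the p threshold in each. EZH2 (ENSG00000106462.12, chr7:148807257-148884321, minus strand), the H3K27 methyltransferase, measured 35.7, 41.2, 37.1, 40.9 and 43.3 CPM in T24 replicates 1 to 5 and 46.2, 51.8, 52.5, 52.4 and 47.3 CPM in T24R2 replicates 1 to 5. The T24R2 libraries all lay higher, at a mean of 50.1 ± 3.03 CPM against 39.7 ± 3.13 CPM (SD, n = 5). The log2 fold change of EZH2 was 0.34 ± 0.07 (± SE, edgeR's quasi-likelihood test, adjusted p = 3.4e-05), with a 95% interval of 0.20 to 0.48 that ends below the fold minimum. Under library size scaling alone it was 0.50, still without a call.

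EED (ENSG00000074266.22, chr11:86244753-86278813, plus strand), which binds trimethylated H3K27 and stimulates the enzyme, lay lower in T24R2. It stood at 32.8, 34.5, 34.2, 34.4 and 41.3 CPM in T24 and 31.4, 27.5, 27.9, 29.7 and 26.6 CPM in T24R2. The lines did not overlap, and T24 replicate 5 lay well above the other T24 libraries. The log2 fold change was -0.31 ± 0.08 (± SE, edgeR's quasi-likelihood test, adjusted p = 0.00062). It was -0.14 under library size scaling alone, where the adjusted p was 0.095 in the same edgeR test. EED shares 3.25% of its exon bases with an opposite-strand gene that averaged 9.2 counts in T24 and 8.8 in T24R2. The other 9 genes share none.

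SUZ12 (ENSG00000178691.11, chr17:31937007-32001038, plus strand), the scaffold of the complex, was the only gene of the 10 whose lines overlapped. Its values were 61.7, 70.3, 67.3, 72.0 and 69.8 CPM in T24 and 65.1, 72.5, 75.3, 74.8 and 68.8 CPM in T24R2. The log2 fold change was 0.06 ± 0.06 (± SE, edgeR's quasi-likelihood test, adjusted p = 0.31), with a 95% interval of -0.05 to 0.18, and the exact two-sided permutation test gave p = 0.27. With library size scaling alone the log2 fold change was 0.23 and the adjusted p 0.00058 by the same edgeR test, and the exact permutation p was 0.00794. SUZ12 has a pseudogene copy on the same chromosome, SUZ12P1, which held 128 to 170 counts in T24 and 104 to 170 in T24R2 beside 589 to 669 and 700 to 839 for SUZ12. Reads that fit both copies equally were left out when only uniquely mapped reads were kept, so the level of SUZ12 is uncertain to that extent. The copies DNMT3AP1, TET1P1, EZH2P1 and EEDP1 held 0 counts in every library, and the antisense gene TET2-AS1 at most 1.

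Levels can be compared between genes only per length of transcript, so CPM were divided by the kilobases of all annotated exons of each gene. That length pools every transcript and includes exons the cells may not use. On this scale UHRF1 led in T24 at 14.9 ± 1.63 CPM per kb (SD, n = 5), above DNMT1 at 10.7 ± 0.814 and SUZ12 at 10.4 ± 0.613 CPM per kb. DNMT1 and SUZ12 overlapped in T24. EED and DNMT3B followed in T24 at 5.20 and 4.65 CPM per kb with overlapping libraries, and EZH2 at 3.68 CPM per kb lay below both.

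In T24R2 DNMT1 led alone, at 16.6 ± 0.407 CPM per kb (SD, n = 5), and no library of another of the 10 genes reached its range. SUZ12, UHRF1 and DNMT3B came next at 10.9, 10.9 and 9.11 CPM per kb, each overlapping its neighbour in the order. EZH2 and EED stood at 4.65 and 4.20 CPM per kb in T24R2 and overlapped, in the reverse of their T24 order. The TET genes and DNMT3A were the lowest in both lines. In T24 they ran from TET3 at 1.54 over DNMT3A at 1.24 and TET2 at 0.859 to TET1 at 0.186 CPM per kb. TET2 passed DNMT3A in the T24R2 order, at 2.12 against 1.82 CPM per kb, although their libraries overlapped, and TET1 was last at 0.0305 CPM per kb.

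**Figure D2:**
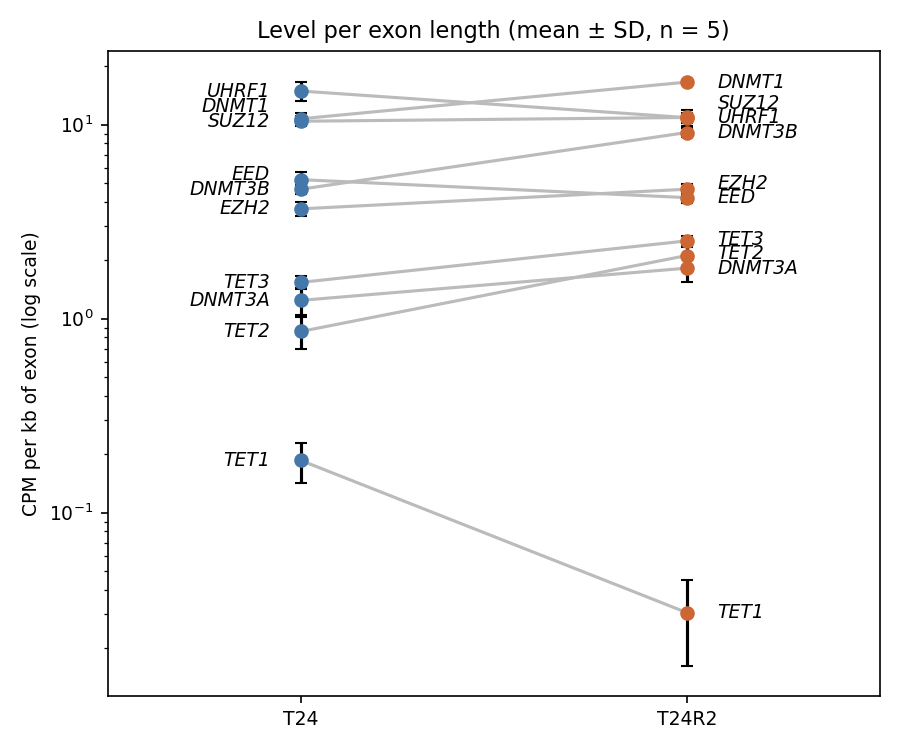
CPM per kilobase of annotated exon (vertical log axis, mean ± SD of 5 libraries) of the 10 genes in T24 (left, blue) and T24R2 (right, orange), with grey lines joining the same gene. UHRF1 is first in T24 at 14.9 and DNMT1 is first in T24R2 at 16.6, and TET1 is last in both at 0.186 and 0.0305.

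Ratios of counts of a pair of genes within a library do not depend on the scaling between libraries. Of 15 pairs compared, 12 differed between the lines at an adjusted p under 0.05 (exact two-sided permutation test of log2 ratios, adjusted over the 15 pairs), and 11 did not overlap. Over all pairs of tested genes, 61.0% did not overlap, so separation of a ratio was common in this comparison. TET1/TET2 and TET1/TET3 are among the 12 and the 11. TET1 passed the filter on low counts only through its T24 libraries, so these pairs add nothing to those counts. The smallest p that 5 libraries against 5 allow, 0.00794, gave an adjusted p of 0.0108. The count of UHRF1 relative to that of DNMT1 was 0.416, 0.481, 0.460, 0.470 and 0.499 in T24 replicates 1 to 5 and 0.242, 0.223, 0.182, 0.221 and 0.231 in T24R2 replicates 1 to 5. UHRF1 therefore fell relative to DNMT1 in every library, with a log2 ratio that differed by -1.08 (exact permutation test, adjusted p = 0.0108). DNMT3B gained on both other methyltransferases, by 0.34 in log2 ratio over DNMT1 and by 0.42 over DNMT3A (exact permutation tests, adjusted p = 0.0108 for each). The ratio of DNMT3A to DNMT1 differed by -0.08 and overlapped between the lines (exact permutation test, adjusted p = 0.54).

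Within the TET family, counts of TET3 stood at 1.22 to 1.91 times those of TET2 in T24 and at 0.876 to 1.05 times in T24R2. The lines did not overlap, and the log2 ratio of TET3 to TET2 differed by -0.60 (exact permutation test, adjusted p = 0.0108). TET1 dropped by 3.84 in log2 ratio against TET2 and by 3.24 against TET3 (exact permutation tests, adjusted p = 0.0108 for each), values that rest on the low TET1 counts. Within PRC2, EZH2 gained on both partners. Its counts were 1.09, 1.19, 1.09, 1.19 and 1.05 times those of EED in T24 replicates 1 to 5 and 1.47, 1.89, 1.88, 1.76 and 1.77 times in T24R2 replicates 1 to 5. The log2 ratio of EZH2 to EED differed by 0.64 and that of EZH2 to SUZ12 by 0.27, both without overlap (exact permutation tests, adjusted p = 0.0108 for each). EED against SUZ12 differed by -0.37, with ranges that overlapped (exact permutation test, adjusted p = 0.0198). EZH1, the paralog that forms PRC2 in cells that do not divide, lost ground against EZH2 by -0.43 in log2 ratio (exact permutation test, adjusted p = 0.0108), while its own level was 47.3 ± 2.95 CPM in T24 and 44.4 ± 2.79 CPM in T24R2 (SD, n = 5). UHRF2, the paralog of UHRF1, differed by -0.16 in log2 ratio to UHRF1 (exact permutation test, adjusted p = 0.306).

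**Figure D3:**
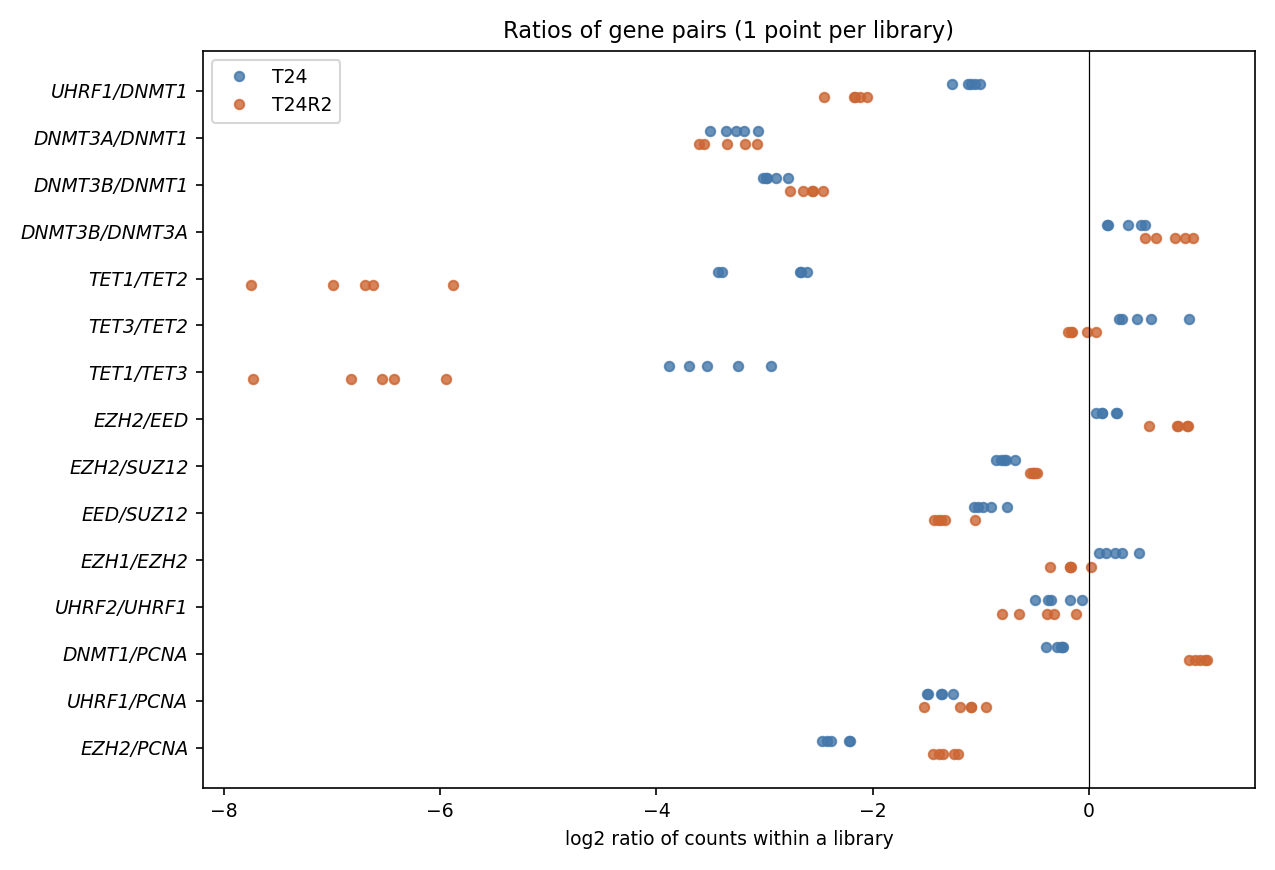
Log2 ratio of the counts of each gene pair within a library (horizontal axis), with 1 point per T24 library (blue) and per T24R2 library (orange). The points of the lines overlap for DNMT3A/DNMT1, EED/SUZ12, UHRF2/UHRF1 and UHRF1/PCNA and are separate for the other 11 pairs. Those of TET1/TET2 lie farthest apart, with a difference of -3.84 that rests on low TET1 counts.

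DNMT1, UHRF1 and EZH2 are known as genes that cells transcribe most while they replicate DNA, so their values are set beside those of proliferation genes. Of 24 proliferation genes, all tested, 11 were called lower and 3 higher in T24R2, where 26.5% of all tested genes were called lower and 24.9% higher. The 24 had a median log2 fold change of -0.48 and summed to 4471 to 4990 CPM in T24 and 3375 to 3604 CPM in T24R2. The mitotic kinases CDK1 and AURKB and the proliferation antigen MKI67 had log2 fold changes of -1.74, -1.63 and -1.21 (adjusted p = 5.1e-29, 7.1e-25 and 2.3e-25 by edgeR's quasi-likelihood test). The 3 called higher were MCM7, a subunit of the replicative helicase, TYMS, which makes thymidylate, and CCNE1, a cyclin of entry into replication, with log2 fold changes of 1.00, 0.66 and 0.86. TYMS shares 47.5% of its exon bases with the opposite strand. The other helicase subunits ran from -0.47 for MCM2, which shares 23.6% of its exon bases with the opposite strand, to 0.49 for MCM6. Other genes of replication were called lower, RRM1, RRM2 and CDT1 among them, with log2 fold changes of -1.19, -1.06 and -0.52. Genes of replication thus moved both ways and did not all share the direction of the mitotic kinases. PCNA, the sliding clamp of replication that DNMT1 binds, fell from 201 ± 10.5 to 126 ± 7.62 CPM (SD, n = 5), a log2 fold change of -0.68 (adjusted p = 1.4e-15 by edgeR's quasi-likelihood test). DNMT1 counts were 0.850, 0.813, 0.842, 0.759 and 0.837 times those of PCNA in T24 replicates 1 to 5 and 2.13, 2.11, 1.90, 1.98 and 2.03 times in T24R2 replicates 1 to 5. These are ratios of counts, not of levels per length, and the ranges of both lines did not overlap, a difference in log2 ratio of 1.31 (exact permutation test, adjusted p = 0.0108). EZH2 gained 1.01 in log2 ratio to PCNA (exact permutation test, adjusted p = 0.0108). MCM7, at 1.00, had a larger log2 fold change than DNMT1 at 0.63 and EZH2 at 0.34, so these gains are relative to PCNA and not to every replication gene. UHRF1 differed by 0.22 relative to PCNA (exact permutation test, adjusted p = 0.0916), and by 0.31 (adjusted p = 0.0198 in the same permutation test) without T24R2 replicate 3. The part of proliferation in the levels of these genes was not tested.

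E2F factors drive many genes of the replication phase, and the promoters of the 10 genes were searched for the E2F words TTTCCCGC, TTTCGCGC, TTTGCCGC and TTTGGCGC on both strands. The promoters were those of RefSeq on GRCh38.p14, 250 bases before to 50 bases after each start, and all 10 genes matched, with 22 promoters. The only DNMT3B promoter, chr20:32779602-32779901, lay inside the gene, which begins at chr20:32762385, so the first start of DNMT3B was not searched. The only DNMT1 promoter, chr19:10194904-10195203, lay inside a minus-strand gene that begins at chr19:10231286. The UHRF1 promoters, from chr19:4909251 onward, lay inside a gene that begins at chr19:4903080. The first annotated starts of DNMT1 and UHRF1 were therefore not searched either. A word was found in 4 of the 10 genes, DNMT1, UHRF1, EZH2 and SUZ12, where 3.31% of all 35116 promoters and 3.99% of 27305 genes held one. The 60 bases around each match are shown because these genes include the 3 known for transcription during replication, and capitals mark the word or its reverse complement, read 5′ to 3′ on the strand of the gene.
DNMT1, chr19:10194948-10195007, minus strand: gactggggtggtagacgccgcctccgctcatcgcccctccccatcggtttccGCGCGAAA
UHRF1, chr19:4909441-4909500, plus strand: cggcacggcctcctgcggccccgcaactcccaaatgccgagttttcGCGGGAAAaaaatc
UHRF1, chr19:4909958-4910017, plus strand: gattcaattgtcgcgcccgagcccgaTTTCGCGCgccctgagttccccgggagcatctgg
EZH2, chr7:148884283-148884342, minus strand: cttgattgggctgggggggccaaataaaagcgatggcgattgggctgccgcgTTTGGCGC
SUZ12, chr17:31936792-31936851, plus strand: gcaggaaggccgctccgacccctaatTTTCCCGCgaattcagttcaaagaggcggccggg

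The word of DNMT1 spans the start of its searched promoter, from base -2 to base 6. That of EZH2 lies just after its start, at bases 2 to 9. The UHRF1 words lie at bases -14 to -7 and -160 to -153 of separate starts, and the SUZ12 word at bases -189 to -182. These 4 genes did not share a change, since DNMT1 rose, UHRF1 and EZH2 stayed inside the fold minimum on opposite sides, and SUZ12 missed the p threshold. A match is only a stretch of letters, and binding of E2F was not measured. The promoters also differed in CpG content, the substrate of the enzymes that these genes encode. The DNMT3B promoter, which lies inside the gene, had 3 CpG sites in its 300 bases. The 3 TET1 promoters had 6, 10 and 11. All of these were below the median of 14 over all promoters, and CpG content at the first annotated starts of DNMT3B, DNMT1 and UHRF1 was not examined. DNMT1 had 30, SUZ12 40 and the 2 EZH2 promoters 46 and 45 sites, above the upper quartile of 28.

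The partners of these enzymes were read from lists fixed by function, and each is given with its count of calls beside the backgrounds of 24.9% higher and 26.5% lower. Among 9 partners of DNA methylation, 8 were tested, 1 was called higher and 4 lower, with a median log2 fold change of -0.43. HELLS, the chromatin remodeller that opens nucleosomes to the methyltransferases, fell from 53.2 ± 1.64 to 29.1 ± 1.68 CPM (SD, n = 5), and ZBTB24, which drives the gene of its cofactor CDCA7, rose from 11.2 ± 1.15 to 23.2 ± 3.31 CPM (SD, n = 5). Their log2 fold changes were -0.87 and 1.05 (adjusted p = 1.1e-14 and 3.3e-11 by edgeR's quasi-likelihood test). CDCA7 itself was not called, and its libraries overlapped between the lines. It stood at 44.7 CPM in T24 and 48.1 CPM in T24R2, where edgeR's quasi-likelihood test gave an adjusted p of 0.16. CDCA7L, the relative of CDCA7, fell by 4.37 on the log2 scale (adjusted p = 9e-36 by edgeR's quasi-likelihood test), and it shares 21.4% of its exon bases with genes on the opposite strand. UHRF2 had a log2 fold change of -0.61 (adjusted p = 1.2e-10 by edgeR's quasi-likelihood test), in the same direction as UHRF1, and this call was lost under library size scaling alone (-0.45).

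Of 8 methyl-CpG readers, all tested, 3 rose and 5 were not called, 3 of those lower by adjusted p alone, with a median of -0.07. The risers were MBD1, MBD3 and MBD2, proteins that bind methylated DNA or belong to the NuRD repressor, with log2 fold changes of 0.79, 0.70 and 0.66. Among 12 partners of demethylation, 10 were tested, 2 rose and 3 fell. IDH1 and IDH2 make the 2-oxoglutarate that TET enzymes consume, IDH1 in the cytosol and IDH2 in mitochondria, and they moved apart. IDH1 rose from 43.2 ± 1.40 to 135 ± 8.75 CPM (SD, n = 5) and IDH2 fell from 98.3 ± 2.86 to 23.3 ± 3.84 CPM (SD, n = 5). The log2 fold changes were 1.64 for IDH1 and -2.07 for IDH2 (adjusted p = 2.5e-26 and 1.1e-25 by edgeR's quasi-likelihood test). GADD45A, a stress-induced factor linked to active demethylation, had a log2 fold change of -1.26, while TDG, the glycosylase that excises oxidised methylcytosine, stood at 18.5 ± 1.05 CPM in T24 and 18.5 ± 1.57 CPM in T24R2 (SD, n = 5), with a 95% interval of its log2 fold change from -0.19 to 0.20.

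The methyl donor cycle, which makes and recycles S-adenosylmethionine, had 8 of 9 genes tested, 4 called higher and 1 lower, with a median log2 fold change of 0.52. MAT2A, which makes S-adenosylmethionine, rose from 243 ± 6.74 to 409 ± 5.83 CPM (SD, n = 5), and AHCYL2, a relative of the hydrolase AHCY, had a log2 fold change of 0.86. MAT2A shares 12.5% of its exon bases with genes on the opposite strand.

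On the Polycomb side, 10 of 12 PRC2 partners were tested, 4 were called lower and 6 were not called, 4 of those higher by adjusted p alone, with a median log2 fold change of -0.04. RBBP7, a histone-binding subunit, fell from 229 ± 6.76 to 124 ± 4.30 CPM (SD, n = 5). The accessory subunits MTF2, which guides PRC2 to CpG islands, and LCORL had log2 fold changes of -0.74 and -0.60, and LCORL was no longer called under library size scaling alone (-0.44). EZH1 had a log2 fold change of -0.09 (adjusted p = 0.22 by edgeR's quasi-likelihood test), and it turned to 0.07 under library size scaling alone. All 23 PRC1 subunits were tested, 2 were called higher and 3 lower, with a median of -0.04. BCORL1, PHC3 and L3MBTL2 had the largest changes among the called subunits with a mean of at least 10 CPM, log2 fold changes of -1.40, -0.79 and 0.81, and L3MBTL2 shares 23.2% of its exon bases with the opposite strand. Of 7 tested H3K27 demethylase and PR-DUB genes, which oppose Polycomb marks, 3 were called higher and 3 lower, or 2 lower under library size scaling alone, where KDM6B (-0.49) lost its call. KDM6A rose from 19.0 ± 1.22 to 30.8 ± 2.12 CPM and its relative KDM6B fell from 42.5 ± 4.22 to 26.96 ± 1.47 CPM (SD, n = 5), log2 fold changes of 0.69 and -0.66. FOXK1 and ASXL1, subunits or partners of the BAP1 deubiquitinase, had log2 fold changes of -0.81 and -0.71. BAP1 itself and ASXL2 were called higher, with log2 fold changes of 0.60 and 0.59. Over these 7 lists of partners 33 genes were called, 15 higher and 18 lower, and under library size scaling alone 11 were called lower.

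**Figure D4:**
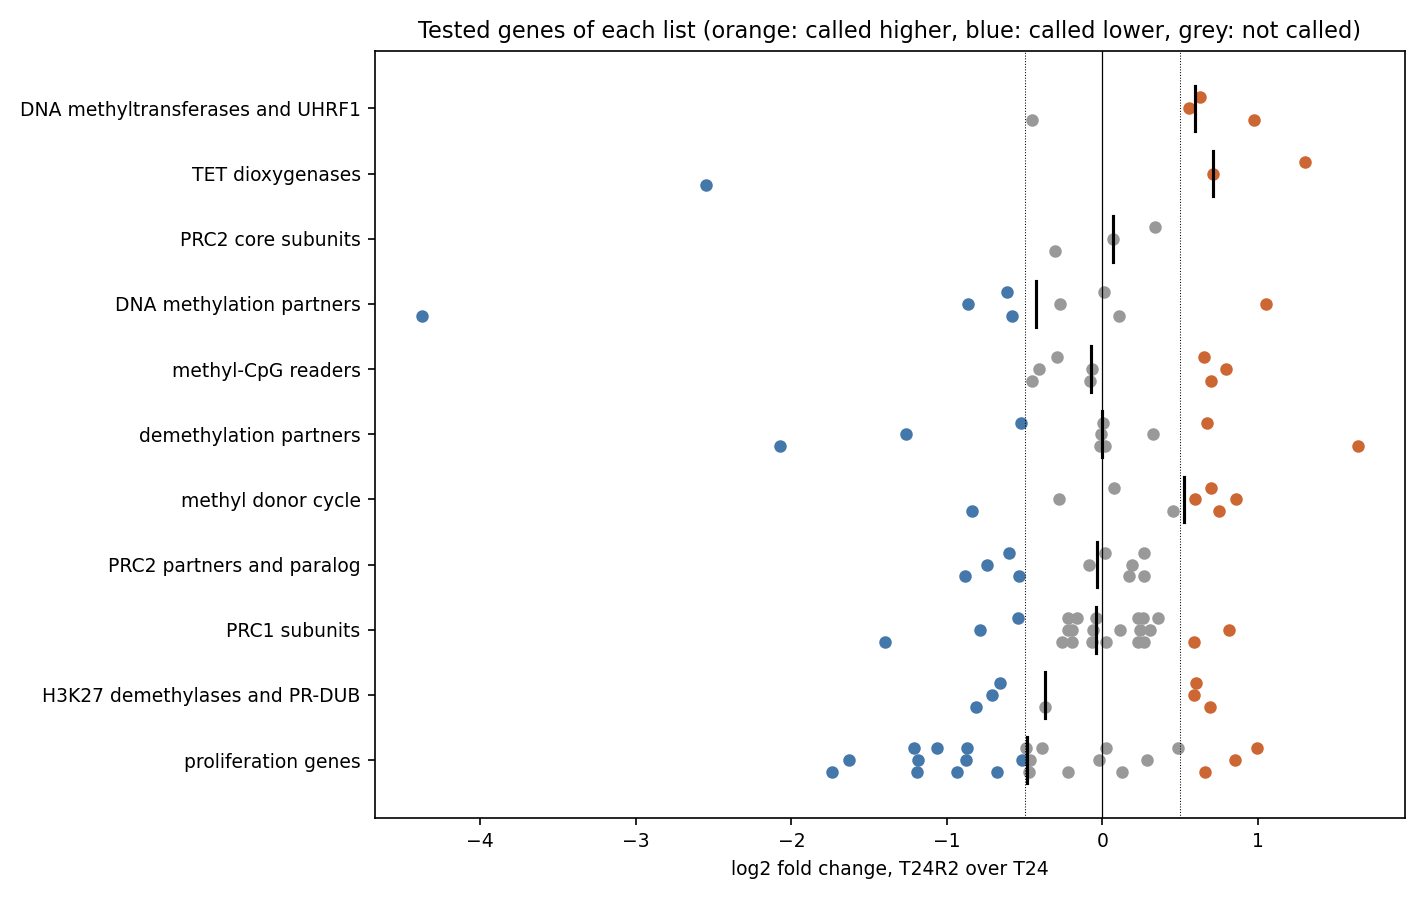
Log2 fold change of T24R2 over T24 (horizontal axis) for each tested gene of the enzyme groups, their partner lists and the proliferation genes, with calls in orange (higher) and blue (lower), uncalled genes in grey, the list median as a black line and dotted lines at the fold minimum of 0.5. The methyl donor cycle has a median of 0.52 and the proliferation genes one of -0.48, and the PRC2 core lies within the dotted lines.

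Genes that DNA methylation and Polycomb are known to hold silent were read as well. Of 14 germline genes, which promoter methylation silences in somatic cells, only 1 passed the filter, 9 held 3 counts or fewer in every library and 6 of those held 0. The germline sum was 2.16 to 4.23 CPM in T24 and 2.02 to 4.51 CPM in T24R2, and SYCP3, the 1 tested gene, had a log2 fold change of -0.48 (adjusted p = 0.12 by edgeR's quasi-likelihood test). With no filter on low counts 2 germline genes were called higher, STK31, with up to 2 counts in T24 and up to 17 in T24R2, and DDX4, with 0 in T24 and up to 3 in T24R2. Of 23 developmental Polycomb targets, 10 were tested, 2 rose and 3 fell, with a median of -0.18, and 9 of the 23 were at the floor of 3 counts in every library. GATA4, 1 of the 2 that rose, had at most 1 count in any T24 library and up to 37 in T24R2. It passed the filter on low counts only through its T24R2 libraries, so its call adds nothing to these counts. The cardiac homeobox gene NKX2-5 rose from 2.18 ± 0.734 to 19.9 ± 2.94 CPM (SD, n = 5), a log2 fold change of 3.18 (adjusted p = 6.1e-20 by edgeR's quasi-likelihood test). PAX6 and GATA6 had log2 fold changes of -1.01 and -0.71, and PAX6 shares 26.3% of its exon bases with the opposite strand. DNA methylation and H3K27 methylation were not measured in these libraries.

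Each gene was also set beside the tested genes within 1 Mb on either side of it, a window chosen after the values of the 10 genes had been seen. Around EZH2, 15 of 18 tested neighbours were called higher and 3 were not called, with a median log2 fold change of 0.99, and EZH2 at 0.34 lay below 16 of them. Around DNMT3A 10 of 18 were called higher and 8 were not called, with a median of 0.58, next to 0.56 for DNMT3A itself. Both stretches were above the 24.9% of all tested genes called higher. DNMT3B stood against its surroundings, since 10 of its 21 tested neighbours were called lower and 1 higher, with a median of -0.49, and all 21 lay below DNMT3B at 0.97. The 6 tested neighbours of TET2 all lay below it, with a median of 0.25. Near TET1, 7 of 19 were called lower and 2 higher, and all 19 lay above TET1. The medians around DNMT1, UHRF1, TET3, EED and SUZ12 lay between -0.08 and 0.23. Windows of 0.5 Mb and 2 Mb kept the direction of every median except that around EED, which was -0.04 and -0.02 there and 0.08 with 1 Mb. Gene copy number was not measured.

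**Figure D5:**
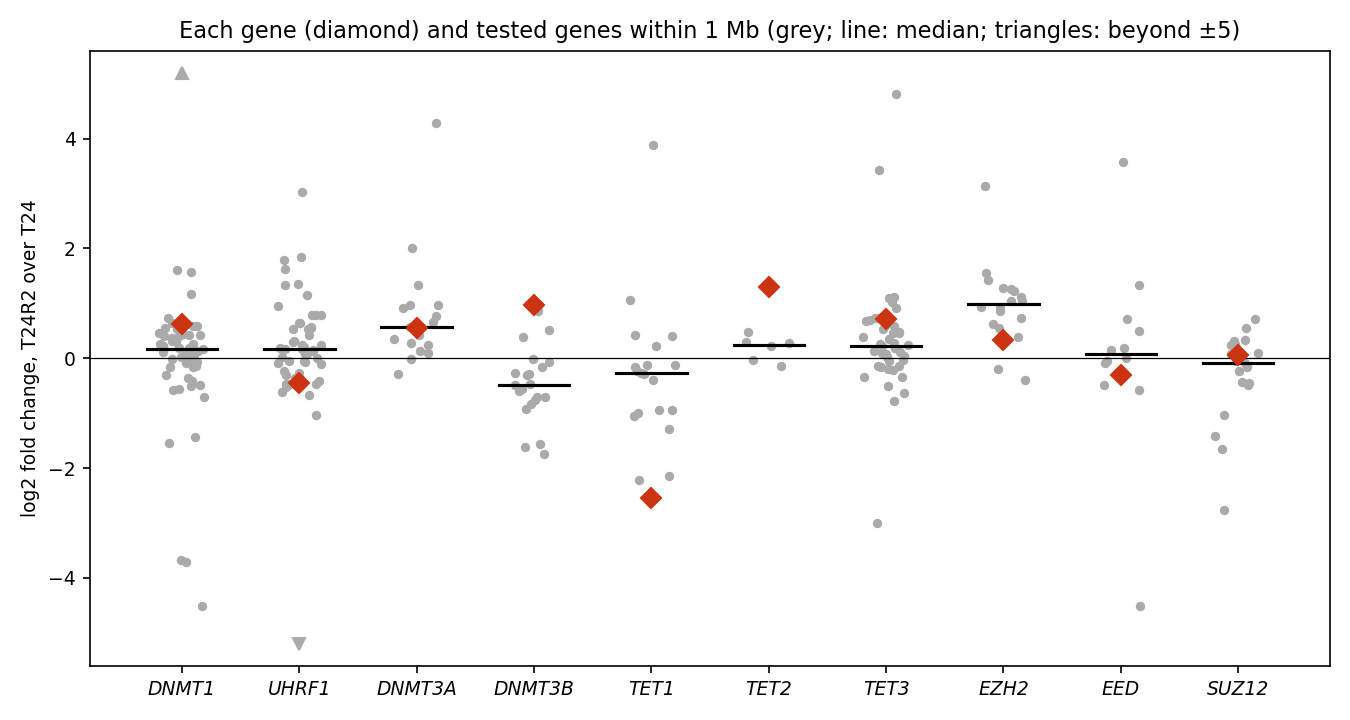
Log2 fold change of T24R2 over T24 (vertical axis) for each of the 10 genes (red diamond) and for the tested genes within 1 Mb on either side (grey points, spread sideways for legibility, with the median as a black line and triangles for values beyond the axis). The median is 0.99 around EZH2 and 0.58 around DNMT3A, and DNMT3B at 0.97 and TET2 at 1.30 lie above all of their neighbours.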

How the data were processed

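RNA-seq reads were aligned by the authors to hg38 with STAR 2.7.0, uniquely mapped reads without duplicates were kept with SAMtools 1.10, and fragments were assigned to GENCODE 39 genes with featureCounts 2.0.1 (strand option 1, although the kit is not described as strand-specific). The deposited tables hold these counts, unnormalized, for each library. Of 61533 identifiers, 61369 matched a symbol.

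Here counts were filtered with filterByExpr (16181 genes), normalized by TMM and compared in R 4.3.3 with the quasi-likelihood test of edgeR 4.0.16, with Benjamini-Hochberg adjustment over all tested genes. The common biological coefficient of variation was 6.61%. In simulated counts of 16181 genes, this test recovered 100 of 100 genes changed 2-fold and 81 of 100 changed 1.5-fold, with 4 false calls among the unchanged genes. Only 200 genes were changed there, equally up and down and all at levels above that of TET1. The simulation therefore does not cover errors of scaling or genes with counts as low as those of TET1. Within-library ratios used a pseudocount of 0.5. Exon overlaps used bedtools 2.31.1, and permutation tests SciPy 1.17.1. The interval of the TET1 count ratio covers counting error only, and those of fold changes include the spread between libraries. Libraries of a line differed by more than sampling noise. Alternatives were other scalings, filters, fold minima, limma-voom of limma 3.58.1, DESeq2 1.42.0 (apeglm 1.24.0), a replicate block and leaving out each library.

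The genes and lists were chosen with earlier results of these data known. Beside the 10 genes, the text names EZH1, UHRF2, DNMT3L, KDM6A, KDM6B, TDG and PCNA, up to 3 called genes per list with the largest changes at a mean of at least 10 CPM, and markers with at least 10 CPM in a line. CDCA7, BAP1, ASXL2, AHCY, the uroplakins, BCL9L, MCM2, MCM6, MCM7, TYMS, CCNE1, RRM1, RRM2, CDT1, SYCP3, STK31, DDX4, GATA4, S1PR2 and the copies were named after their values were seen. A gene that this rule covers is not reported here.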

Additional observations from a re-analysis of the deposited data

Results flagged for a closer look

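EED stood at 41.3 CPM in T24 replicate 5, while the other 4 T24 libraries held 32.8 to 34.5 CPM. This library lay far from the others, with a gap to its nearest neighbour of 0.798 of the whole range, above Dixon's critical value of 0.71 for 5 samples. Of the 20 groups examined (10 genes in each line), this was 1, and chance flags about 1 in 20.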

How the results depend on the processing

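Under library size scaling alone, the calls lower in the partner lists went from 18 to 11, EZH1 turned from -0.0891 to 0.0741, and UHRF2, LCORL, KDM6B and KRT8 were no longer called. TDG, at 0.00, turned to -0.000895 with RLE scaling and to -0.000934, -0.000925 and -0.000653 with DESeq2 without, with normal and with apeglm shrinkage. A mean of at least 100 counts left 4991 calls (2350 higher, 2641 lower) and 0 of the 10 genes lower, because TET1 was filtered out. With no fold minimum, 6128 genes were higher, 3 of the 10 genes lower, and 54 partner genes called, 28 of them higher. At an absolute log2 fold change over 1, 4211 genes were called (1918 higher, 2293 lower), 2 of the 10 genes (1 higher) and 6 partners (2 higher, 4 lower). Leaving out 1 library gave 1 to 2 of the 10 genes lower, UHRF1 joining without T24 replicate 1 or 4, and 4 to 5 higher. TDG then ranged from -0.0358 to 0.0463, turning below 0 without T24 replicate 1 or 5, or T24R2 replicate 4 or 5.

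Same-numbered libraries did not deviate together (correlations 0.00381 to 0.0567), so the numbers pair nothing. With the replicate block, 8240 genes were called (3979 higher, 4261 lower), 6 of the 10 genes (5 higher, 1 lower) and 33 partners. Sign flips over same-numbered pairs as a replicate block gave 0 of 15 ratios, as 5 pairs allow no p below 0.0625. At this depth TET1, with 1 to 5 counts in each T24R2 library, allows only a wide interval.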
